A study of Homo sapiens with 12 samples.

Results

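The transcripts described here encode 7 surface proteins that leukocytes use to hold on to other cells: ICAM1, VCAM1, CD58, F11R, CD44, CD99 and ALCAM. The genes were chosen by name, and all 7 are listed among the 16633 genes of the series, in the table of each experiment. RNA came from HT1080 fibrosarcoma cells, a human connective tissue tumor line labelled wild type. After 3 days of growth in biotin-depleted medium, cells were moved to low-serum biotin-depleted medium and kept for 24 h with PMA at 40 nM (phorbol 12-myristate 13-acetate, an activator of protein kinase C) or without it. In the other experiment, cells in the same media were given 40 µg/mL concanavalin A (ConA), a mannose- and glucose-binding lectin, for 24 h, or left as controls. Each of the 4 groups holds 3 libraries, numbered 1 to 3 for PMA, its controls and ConA and 4 to 6 for the ConA controls. Whether control cells received the solvent of PMA is not given in the sources used here, nor is whether the libraries of a group came from separate cultures, so p-values measure the spread between libraries.

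Leukocytes leave the blood in steps. Selectins slow them, chemokines activate their integrins, the integrins then grip immunoglobulin-type ligands such as ICAM1 and VCAM1, and further ligands at cell borders, among them F11R and CD99, guide the passage between cells. Tumor cells carry several of the same ligands, which T cells and natural killer cells use to form contacts with them. ICAM1 binds the leukocyte integrins LFA-1 and Mac-1, VCAM1 binds the integrin VLA-4, CD58 binds CD2 and ALCAM binds CD6. Inflammatory signals are known to induce ICAM1 and VCAM1 through the transcription factor NF-kB, and interferons through STAT and IRF factors.

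The windows before the transcription starts of ICAM1 and VCAM1 are shown because these are the members best known as inducible by inflammatory signals. Each runs from 250 bases before the start to 50 bases after it, 5′ to 3′ on the strand of the gene, from RefSeq on GRCh38.p14, which is not the build named in the submitters' processing notes. Capitals mark every match to any of 4 motifs searched on both strands. These are the kB consensus (GGG, then A or G, then 2 bases of any kind, then 2 of C or T, then CC) and AP-1 (TGANTCA). The others are the IRF element (TTTC, then 2 bases, then TTTC) and a GAS element (TTCNNNGAA).
ICAM1 (chr19:10270870-10271169, plus strand): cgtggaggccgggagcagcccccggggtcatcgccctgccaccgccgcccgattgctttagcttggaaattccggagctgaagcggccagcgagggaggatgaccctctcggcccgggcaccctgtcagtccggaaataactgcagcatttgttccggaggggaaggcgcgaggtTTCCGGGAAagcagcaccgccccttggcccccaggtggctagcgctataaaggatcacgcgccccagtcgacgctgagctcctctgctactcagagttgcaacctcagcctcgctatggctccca
VCAM1 (chr1:100719492-100719791, plus strand): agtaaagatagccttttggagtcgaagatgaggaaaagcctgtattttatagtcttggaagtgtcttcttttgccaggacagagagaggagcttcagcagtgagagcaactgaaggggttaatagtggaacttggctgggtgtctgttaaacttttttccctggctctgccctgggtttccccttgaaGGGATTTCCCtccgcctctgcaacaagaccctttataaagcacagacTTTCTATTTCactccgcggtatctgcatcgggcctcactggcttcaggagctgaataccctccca

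In the ICAM1 window the capitals are 1 GAS match, TTCCGGGAA. In the VCAM1 window they are 1 kB match, GGGATTTCCC, and 1 IRF match, TTTCTATTTC. No 2 of these matches overlap. Of 35116 RefSeq windows of this length, 11.3% hold the kB consensus, 7.71% AP-1, 3.57% the IRF element and 7.66% the GAS element. No match to any of the 4 motifs is in the windows of CD58, CD44, CD99 and ALCAM. A motif without a match, such as the kB consensus in the ICAM1 window, says only that its exact letters are not there. Sites that depart from these letters were not searched for and are not marked. A window was used for 6 of the 7 members, all but F11R.

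The libraries hold 33643085 to 45581816 estimated reads on genes, with a median of 40975989. The label of the cells was checked against markers. All 8 mesenchymal markers, such as vimentin (VIM), are listed in both experiments, and summed to between 555932 and 760380 normalized counts in each library, whereas epithelial markers summed to at most 313 and no B cell or erythroid marker is listed. Monocyte markers summed to 300 to 460 normalized counts, with CD14 not listed. Of 5 endothelial markers, 4 are listed and CDH5 is not. They summed to 165 to 209 normalized counts in the PMA controls, 208 to 218 with PMA, 191 to 242 in the ConA controls and 261 to 280 with ConA. Genes of T and natural killer cells are listed in the PMA experiment, 6 of 7 against 1 of 7 in the ConA experiment. Their sum was 620 to 701 normalized counts in the PMA controls and 758, 934 and 1221 with PMA, against 21.6 to 31.0 in all ConA experiment libraries, and TRAC is not listed in either table. The part of these endothelial, T and natural killer cell genes in the results was not tested.

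Normalized counts are read counts that the authors scaled per library within each table. They are not divided by gene length, so they are compared for a gene between groups of a table. Treated and control libraries were compared with limma on log2(normalized count + 1), with p-values adjusted by the Benjamini-Hochberg method over all genes whose mean reached 10 normalized counts. A rise or fall was called where the change was 2-fold or more and the adjusted p was no higher than 0.0001, and smaller differences are given as values. An exact permutation test with 3 libraries on each side has 0.1 as its lowest two-sided p. In RNA of a whole culture, fewer cells of a kind and less RNA per cell cannot be told apart.

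With PMA, ICAM1 and ALCAM transcripts rose and CD58 transcripts fell, while the changes of the other 4 members stayed below the thresholds. With ConA, ICAM1 rose, VCAM1 had reads where its controls had none, and no member fell past the thresholds. Thus 2 of 7 members were called higher with PMA, where 4.03% of 15153 genes tested were, and 1 was called lower, where 4.61% were (8.65% in either direction). With ConA 2 of 7 were called higher, where 5.83% of 15139 genes tested were (8.71% in either direction), but 1 of them, VCAM1, reached the minimum mean only through the treated libraries, so its call adds no support. By limma 0 were called lower with ConA, where 2.88% of genes were, although 1 (CD44) was lower at an unadjusted p under 0.05. The members' log2 fold changes had a median of 0.19 (PMA) and 0.22 (ConA), next to 0.0029 and -0.0022 over all genes tested. The ConA median is also 0.22 with VCAM1 at its lower bound. The treated libraries lay wholly apart from the controls for 4 members higher and 2 lower with PMA, where 34.8% and 33.1% of all genes were so (67.9% in all), and for 4 higher and 1 lower with ConA, where the shares were 34.9% and 34.4% (69.3% in all). At an adjusted p of at most 0.05 with no minimum fold, 4 members were higher and 2 lower with PMA, against 32.8% and 30.5% of genes (63.3% in all). With ConA 4 were higher and 1 lower by that rule, against 32.8% and 32.5% (65.3% in all). In both of these ConA counts VCAM1 is among the 4 higher only through controls at 0, so it adds no support. Non-overlapping groups and adjusted p-values under 0.05 were thus common among all genes.

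**Figure D1:**
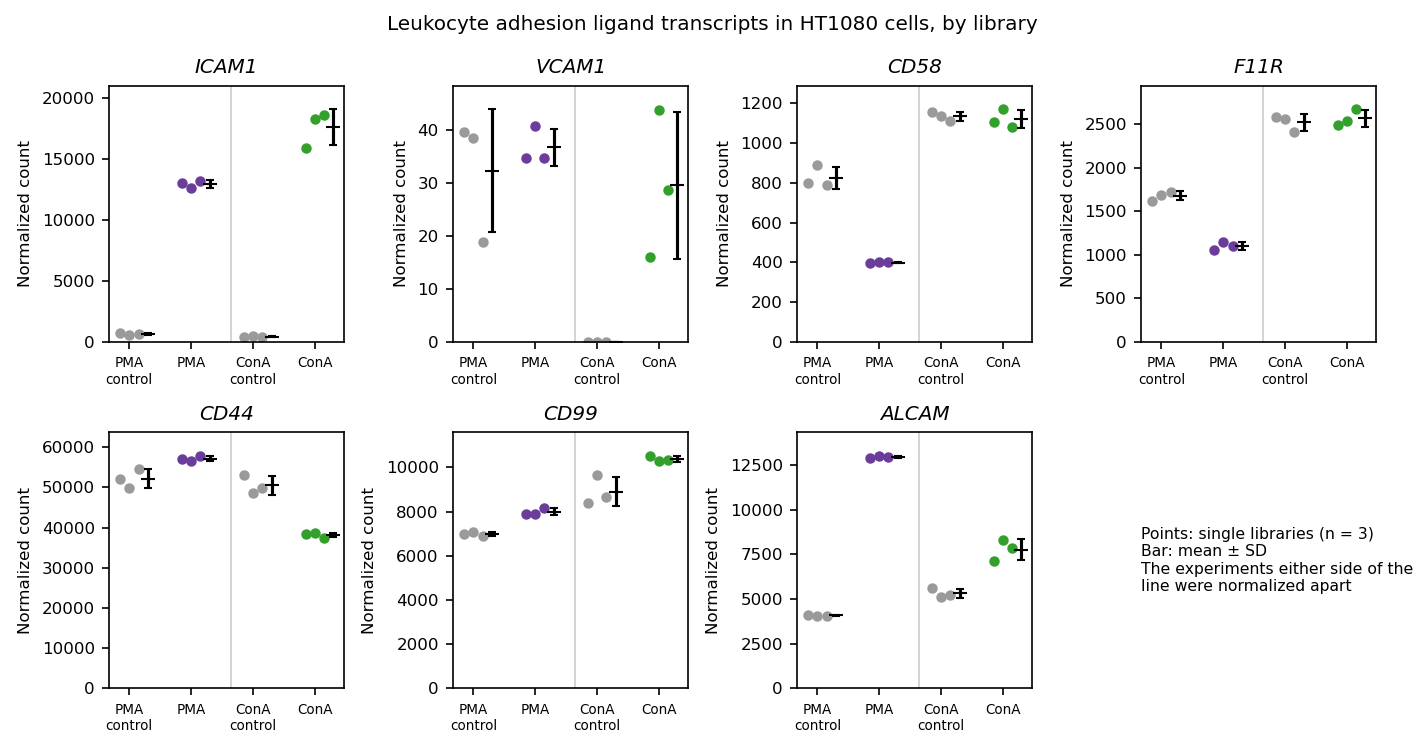
Normalized counts (vertical axes, linear from 0) of the 7 adhesion ligand transcripts in each of the 12 libraries, by group. Points are single libraries and bars the mean ± SD (n = 3). ICAM1 stands above its controls in both experiments, ALCAM rises mainly with PMA, CD58 falls with PMA, and VCAM1 is at 0 in all 3 ConA controls.

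ICAM1, which anchors leukocytes through their LFA-1 and Mac-1 integrins, had the largest change of any member with PMA, and with ConA the largest of those with reads in the controls. In the PMA experiment its normalized counts were 684, 596 and 645 in the controls and 13022, 12602.5 and 13192 with PMA. Every treated library lay far above every control, and the libraries of a group were close to each other. The mean rose from 642 ± 43.9 to 12939 ± 304 normalized counts (SD, n = 3), or by a fold of 20.2 (95% confidence interval 18.6 to 21.8, log2 fold change 4.33, standard error 0.052, adjusted p = 1.60e-13 from limma). In the ConA experiment ICAM1 stood at 429, 444 and 432 normalized counts in the controls and at 15882, 18281 and 18583 with ConA. Again the groups were far apart, with ConA library 1 the lowest of the treated ones. The mean rose from 435 ± 7.99 to 17582 ± 1480 normalized counts (SD, n = 3), or by a fold of 40.2 (95% confidence interval 36.6 to 44.2, log2 fold change 5.33, standard error 0.064, adjusted p = 7.79e-17 from limma). By log2 fold change ICAM1 ranked 38 of 15153 genes with PMA and 39 of 15139 with ConA.

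VCAM1, the ligand of VLA-4, had few reads in every library. It was listed at 0 in ConA controls 4, 5 and 6, and at 16.0, 43.9 and 28.8 normalized counts with ConA, from about 16, 42 and 32 estimated reads. All 8 widely expressed genes looked up, ACTB and GAPDH among them, were above 0 in every library of that table, and 25 genes were at 0 in all 3 ConA controls. Set against a floor of 3 estimated reads in each control library, 3.04 normalized counts on average, VCAM1 was at least 9.71-fold higher with ConA on average, and at least 5.26-fold in the lowest library. The limma p for this gene rests on zeros plus a pseudocount and is not used as support. The mean of 29.6 ± 14.0 normalized counts (SD, n = 3) varied widely between the treated libraries. Endothelial markers, listed above, summed to 261 to 280 normalized counts in the same ConA libraries and 191 to 242 in their controls. Among them KDR, TEK and PECAM1 were higher and VWF was lower (log2 fold change -0.89). No endothelial marker passed the thresholds, and CDH5 is not listed. Their part in the VCAM1 values was not tested. In the PMA experiment VCAM1 had 39.6, 38.5 and 19.0 normalized counts in the controls and 34.8, 40.9 and 34.7 with PMA. The groups overlapped, and control 3 was the lowest. The log2 fold change was 0.25 (95% confidence interval -0.37 to 0.87, adjusted p = 0.463 from limma), and -0.087 without control 3. Controls of the PMA experiment therefore held VCAM1 reads where those of the ConA experiment held none, although the tables were normalized apart.

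ALCAM, the ligand of the T cell protein CD6, rose with PMA and was higher by less than the threshold with ConA. Its normalized counts were 4110, 4053 and 4065 in the PMA controls and 12910, 13009.5 and 12942 with PMA. Replicates differed little, with a coefficient of variation of 0.73% in the controls and 0.393% with PMA. The mean rose from 4076 ± 29.8 to 12954 ± 50.8 normalized counts (SD, n = 3), or by a fold of 3.18 (95% confidence interval 3.02 to 3.35, log2 fold change 1.67, adjusted p = 9.88e-12 from limma, standard error 0.034). In the ConA libraries the values were 7131, 8271 and 7860 normalized counts, against 5610, 5135 and 5234 in the controls. These groups did not overlap either, and the log2 fold change was 0.54 (95% confidence interval 0.41 to 0.67, adjusted p = 3.10e-06 from limma).

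CD58, which T and natural killer cells bind through CD2, fell with PMA to about the level of a 2-fold change. Its normalized counts were 797, 889 and 787 in the controls and 396, 400.2 and 399.9 with PMA. The treated libraries were almost level, and control 2 was the highest. The mean fell from 824 ± 56.2 to 399 ± 2.42 normalized counts (SD, n = 3), which is -1.04 as a log2 fold change (95% confidence interval -1.19 to -0.90, adjusted p = 9.18e-08 from limma, standard error 0.065). Without control 2 the log2 fold change was -0.99, short of the threshold. With ConA, CD58 stood at 1104, 1170 and 1082 normalized counts, and at 1158, 1135 and 1113 in the controls. These groups overlapped, and the log2 fold change was -0.022 (95% confidence interval -0.15 to 0.11, adjusted p = 0.774 from limma).

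F11R, also called JAM-A, is a junctional protein that binds itself on neighbouring cells and LFA-1 on leukocytes. It was lower with PMA by less than the threshold, at 1049, 1144 and 1098 normalized counts against 1620, 1688 and 1724 in the controls. The groups did not overlap, and the log2 fold change was -0.61 (95% confidence interval -0.72 to -0.50, adjusted p = 9.57e-07 from limma). With ConA its values, 2489, 2530 and 2669 normalized counts, lay among those of the controls, 2583, 2561 and 2410. The log2 fold change there was 0.025 (95% confidence interval -0.095 to 0.15, adjusted p = 0.707 from limma), and it turned to -0.0076 after quantile normalization and -0.037 after median centring.

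CD44, the main receptor for hyaluronan and a ligand of selectins, was abundant throughout. With ConA it was lower, at 38449, 38546 and 37504 normalized counts against 53141, 48495 and 49882 in the controls. All treated libraries were below all controls, by a log2 fold change of -0.40 (95% confidence interval -0.52 to -0.28, adjusted p = 1.89e-05 from limma), below the threshold. With PMA it stood at 57063, 56618 and 57877 normalized counts, against 52106, 49900 and 54565 in the controls. That difference was small, a log2 fold change of 0.13 (95% confidence interval 0.036 to 0.23, adjusted p = 0.0206 from limma), and 0.023 after quantile normalization (adjusted p = 0.733). Gene-level values do not separate the spliced forms of CD44.

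CD99, which binds itself across cell borders during diapedesis, was slightly higher with both treatments. With PMA it had 7882, 7901 and 8174 normalized counts against 6990, 7058 and 6909 in the controls, and with ConA 10526, 10302 and 10318.5 against 8398, 9640 and 8668. Neither pair of groups overlapped. The log2 fold change was 0.19 with PMA (95% confidence interval 0.12 to 0.27, adjusted p = 5.77e-04 from limma) and 0.22 with ConA (95% confidence interval 0.10 to 0.35, adjusted p = 0.00326 from limma), far below the threshold. After quantile normalization the value with PMA was 0.044 (adjusted p = 0.297). CD99 lies in a region shared by the sex chromosomes, and how the authors' counting treated its copies is not given in the sources used here.

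**Figure D2:**
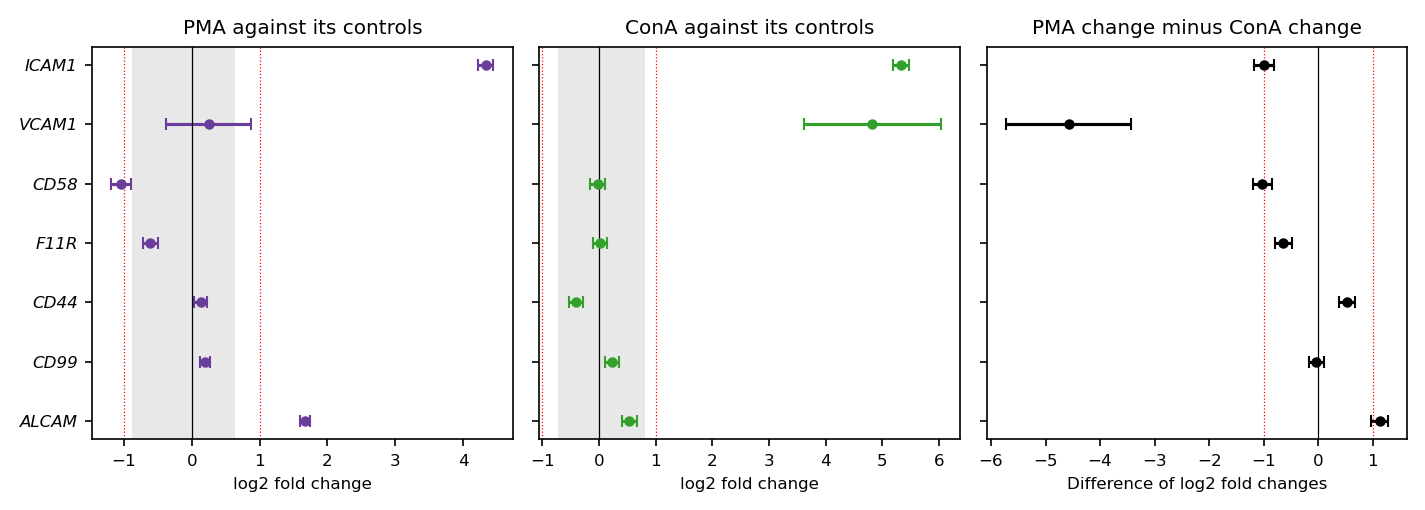
Log2 fold changes (horizontal axes) of the 7 transcripts with PMA and with ConA, each against the controls of its own experiment, and the difference between the changes. Points are limma estimates, bars 95% confidence intervals, dotted lines a 2-fold change, and grey bands the range from the 10th to the 90th percentile of all genes tested, -0.86 to 0.63 with PMA and -0.71 to 0.80 with ConA. ICAM1 lies far outside the band in both experiments, ALCAM and CD58 outside it with PMA alone, and VCAM1 outside it with ConA alone, where its point depends on the value added to controls at 0.

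Whether the treatments differed in their effect on these transcripts was tested over all 12 libraries by subtracting the log2 fold change with ConA from that with PMA. Each treatment has its own controls, so a treatment and its experiment cannot be told apart here. Of the 7 members, 3 passed the thresholds for this difference, where 10.6% of 15030 genes tested did, and VCAM1 is among the 3 only through controls at 0. At an adjusted p of at most 0.05 with no minimum size 6 did, VCAM1 again among them, against 61.1% of genes. ALCAM changed more with PMA, by a difference of 1.13 on the log2 scale (95% confidence interval 0.98 to 1.28, adjusted p = 5.06e-10 from limma), which was 0.98 and no longer past the threshold after quantile normalization. CD58 had a difference of -1.02 (95% confidence interval -1.20 to -0.84, adjusted p = 1.72e-08 from limma), and its size was under 1 after quantile normalization (-0.95) or median centring (-0.97) and without PMA control 2 (-0.97) or ConA library 2 (-0.99). For VCAM1 the fitted difference is set by the pseudocount over controls at 0, at -7.84, -4.58 and -1.74 with pseudocounts of 0.1, 1 and 10, and is not read as a size. ICAM1 sat at the threshold, with a difference of -0.997 (95% confidence interval -1.18 to -0.82, adjusted p = 2.28e-08 from limma) whose size was just under 1, and it passed after quantile normalization (-1.05) and without PMA control 2, PMA library 1, PMA library 3, ConA library 1 or ConA control 5. F11R had a difference of -0.64 (adjusted p = 8.53e-07) and CD44 one of 0.54 (adjusted p = 3.06e-06), both below the threshold for size. For CD99 the difference was -0.031 (95% confidence interval -0.17 to 0.11, adjusted p = 0.705), and -0.20 after quantile normalization (adjusted p = 0.0138).

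Levels of different genes can be compared only per length. Divided by the median length of the protein-coding transcripts in GENCODE 29, the PMA controls held 39256 ± 1755 normalized counts per kb of CD44, 7610 ± 81.4 of CD99, 973 ± 7.10 of ALCAM, 751 ± 51.2 of CD58, 352 ± 11.1 of F11R, 282 ± 19.3 of ICAM1 and 12.2 ± 4.39 of VCAM1 (SD, n = 3). No neighbours in this order overlapped between libraries, and the ConA controls gave the same order. With PMA, ICAM1 reached 5690 ± 133 normalized counts per kb and with ConA 7732 ± 651 (SD, n = 3), moving from rank 6 to rank 3 behind CD44 and CD99. With lengths taken as all exons merged, the order of both control groups was the same, and ICAM1 reached rank 2 with both treatments. The ranges of ICAM1 (4884 to 5714) and CD99 (4850 to 4956) per kb then overlapped with ConA, as did those of CD58 (226 to 229) and F11R (217 to 237) with PMA. The scale of CD44 depends most on the length taken, 1329.5 bases as a median and 6102 as merged exons. The inducible ligand ICAM1 was thus near the bottom of the order in untreated cells and near the top after either treatment.

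**Figure D3:**
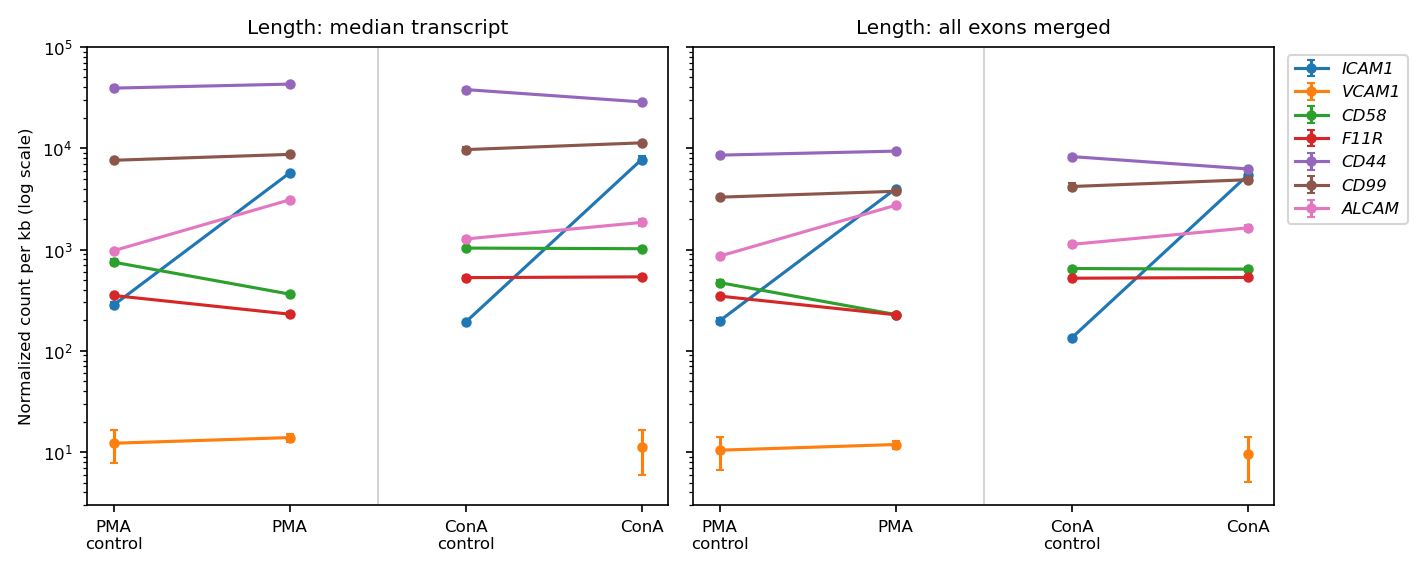
Normalized counts per kb (vertical axis, log scale) of the 7 transcripts in the 4 groups, as mean ± SD of 3 libraries, with 2 ways of taking a gene's length. Lines join a treatment with its own controls, and VCAM1 in the ConA controls, at 0, is not drawn. ICAM1 moves from rank 6 in the controls to rank 3 (median transcript length) or rank 2 (merged exons) with either treatment.

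For CD58 and ALCAM the genes with the most similar values were sought among 14661 genes tested in both experiments, by the root mean square difference over 12 libraries of log2 values taken relative to each experiment's controls. CD58 was nearest to CPE (0.057), FKBP7 (0.059) and CYRIA (0.068). ALCAM was nearest to C9orf72 (0.064), ADAMTS6 (0.069) and TBC1D12 (0.078). None are given for ICAM1 and VCAM1, since the nearest genes to ICAM1, and VCAM1 itself, had control values at or near 0, where the pseudocount sets the distance.

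Other adhesion ligands moved in part with and in part against these members. Of 22 further ligands tested with PMA, 2 rose and 4 fell (median log2 fold change -0.13), and of 20 tested with ConA, 5 rose and 1 fell (median 0.086). Of all genes tested, 4.03% were called higher and 4.61% lower with PMA, and 5.83% and 2.88% with ConA. ICAM4 and ICAM5 follow ICAM1 in gene order. ICAM4, a red cell ligand of leukocyte integrins, is counted among the rises with both treatments, going from 2.77, 2.68 and 6.32 to 82.4, 77.9 and 80.2 normalized counts with PMA and from 2.08, 2.00 and 1.00 to 35.0, 28.2 and 39.5 with ConA. It reached the minimum mean only through the treated libraries, so these calls add no support, and ICAM5 had log2 fold changes of 0.64 and -0.25. ICAM2, another LFA-1 ligand, rose with ConA (log2 fold change 1.76) and had a value of -0.037 with PMA. CD99L2, a relative of CD99 that also serves diapedesis, fell with both, by log2 fold changes of -1.74 with PMA and -1.05 with ConA, unlike CD99 itself. F11R's relative JAM2 rose with ConA (1.09), and so did CD47 (1.71), which restrains phagocytes, and NECTIN2 (1.05). In the same ConA libraries the endothelial markers KDR, TEK and PECAM1 had log2 fold changes of 1.11, 0.43 and 0.70 and VWF one of -0.89, none past the thresholds. The receptor PVR, a ligand of natural killer cell receptors, rose with PMA (1.04). The nectin-like CADM1 fell with PMA (-1.59), as did NECTIN1 and L1CAM, to 0.496 and 0.501 of their control means.

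Selectins and the genes of their ligands showed 2 rises and no fall by limma among 9 tested with PMA, where 4 were lower at an unadjusted p under 0.05. Of all genes tested with PMA, 4.03% were called higher and 4.61% lower. At an adjusted p of at most 0.05, 32.8% of all genes were higher and 30.5% lower with PMA, and 32.8% and 32.5% with ConA. By the unadjusted rule these shares are no lower, so such counts are common in any list. PODXL, a sialomucin that can carry selectin ligands, rose with PMA (1.27), as did the sialyltransferase ST3GAL6 (1.57). CD34, another sialomucin, rose with ConA (1.82). With PMA it was lower but not called, at 4.64, 2.85 and 5.99 normalized counts against 24.0, 18.8 and 19.0 in the controls (log2 fold change -2.01). There it reached the minimum mean only through the controls. The endothelial selectins SELE and SELP are not listed in either table. Of the receptors that leukocytes use to bind the 7 ligands, 8 were tested with PMA and 4 with ConA, with 0 called by limma. Among all genes 8.65% and 8.71% were called in either direction. With PMA the log2 fold changes were 0.998 for ITGAX, 0.95 for ITGB2, 0.73 for ITGB7, 0.71 for ITGAL, 0.090 for ITGAM and -0.87 for ITGA4. With ConA they were 0.28 for ITGB2, 0.19 for ITGAX and -0.32 for ITGA4. At an unadjusted p under 0.05, 4 of these receptors were higher and 1 lower with PMA and 2 higher and 1 lower with ConA. Among the latter is ITGAM, at 1.04, 3.00 and 7.01 normalized counts in the ConA controls and 32.0, 35.5 and 20.7 with ConA. It reached the minimum mean only through the treated libraries, so it adds no support. CD2, the receptor of CD58, had 75.9 ± 15.7 normalized counts in the PMA controls and 103 ± 32.3 with PMA (SD, n = 3), and CD6, the receptor of ALCAM, 50.7 and 68.6 on average. Both are also T cell genes, and neither is listed in the ConA table. Of the 6 T and natural killer cell genes tested with PMA, 0 were called by limma and 3 were higher at an unadjusted p under 0.05. At least 32.8% of all genes were higher by that rule with PMA.

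Some genes around CD44 passed the thresholds that CD44 did not. HAS2, which makes hyaluronan, rose with PMA from 457 to 4283 normalized counts on average (log2 fold change 3.23), against -0.22 with ConA. SPP1, a CD44 ligand, rose with PMA (1.71), and TNFAIP6, a hyaluronan-binding protein, rose with ConA (1.13). The hyaluronan-binding proteoglycan VCAN fell with both treatments (-3.07 with PMA and -1.61 with ConA), and the hyaluronan synthase HAS3 fell with PMA (-1.23). In all, 2 of 10 hyaluronan genes tested rose and 2 fell with PMA, and 1 of 11 rose and 1 fell with ConA. The shares over all genes tested were 4.03% and 4.61% with PMA and 5.83% and 2.88% with ConA. The median log2 fold change of the list was -0.25 with PMA and -0.41 with ConA. At an unadjusted p under 0.05 by limma, 6 were lower and 2 higher with PMA, and 8 lower and 2 higher with ConA. By that rule at least 30.5% of all genes were lower and 32.8% higher with PMA. With ConA at least 32.5% were lower and 32.8% higher. Moesin (MSN), which ties CD44 and ICAM1 to actin, rose with PMA (1.18), against -0.22 with ConA. MMP9, a protease that CD44 holds at the cell surface, rose with both (4.77 and 2.25), and among 9 actin linkers and sheddases no gene but MSN and MMP9 passed the thresholds with either treatment. The sheddases ADAM10 and ADAM17, which can release several of the 7 ligands, had log2 fold changes of -0.21 and -0.13 with PMA and 0.14 and 0.22 with ConA. On the same list, MMP14 had 0.58 with PMA and -0.15 with ConA, and ADAM8 had -0.34 and -0.13.

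Subunits and feedback genes of NF-kB rose with both treatments, 8 of 11 in each experiment, with medians on the log2 scale of 1.28 (PMA) and 1.46 (ConA) and no fall called by limma (1 and 0 lower at an unadjusted p under 0.05). Of all genes tested, 4.03% were called higher with PMA and 5.83% with ConA, and 4.61% and 2.88% lower. TNFAIP3, an inhibitor that NF-kB induces, rose most with PMA (2.92) and also rose with ConA (4.09). BIRC3 (2.19 and 4.11), NFKBIA (1.55 and 2.26) and NFKB2 (1.33 and 1.64) rose with both. IRF1, an interferon-induced factor, rose with ConA (1.22), against -0.45 with PMA. ICAM1 also rose in both experiments, and the values of VCAM1 stand above. The tested difference of IRF1 (PMA less ConA, log2) was -1.66. Whether any gene of this list acted on ICAM1 or VCAM1 was not tested.

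**Figure D4:**
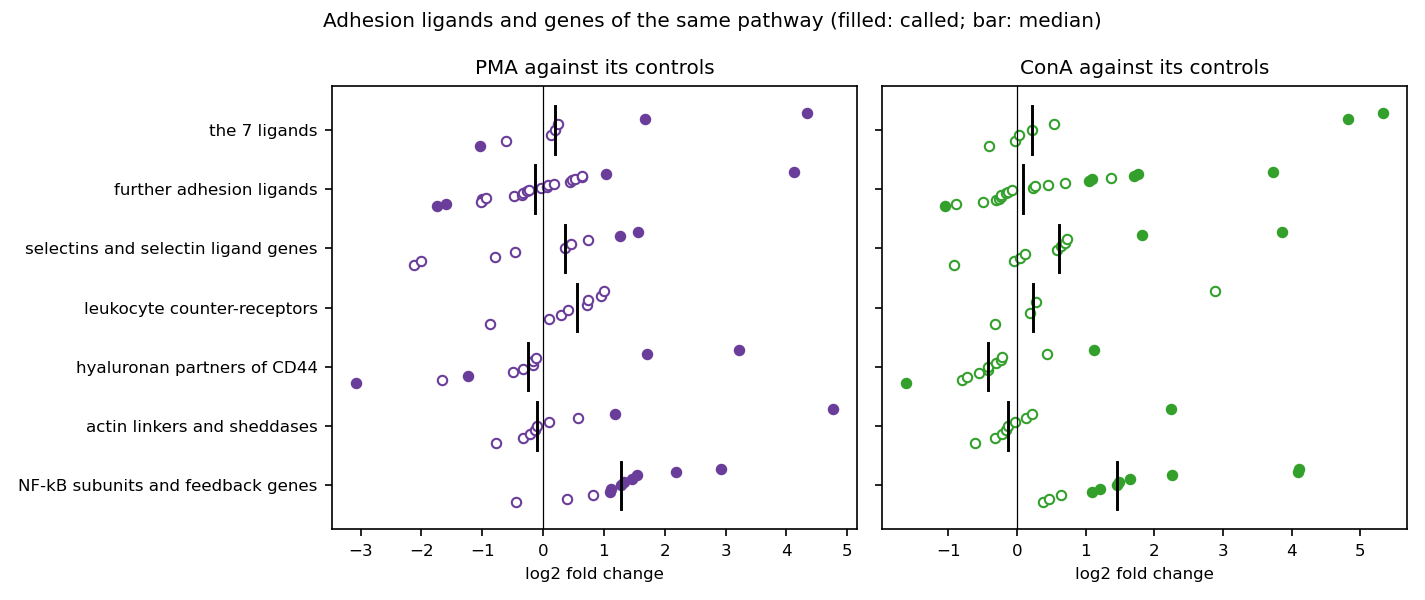
Log2 fold changes (horizontal axes) of the 7 ligands and of 6 lists of related genes with PMA and with ConA. Each point is a gene tested, filled where it was called changed, and bars are medians. The NF-kB list lies mostly to the right, with medians of 1.28 and 1.46, while the other lists hold genes on both sides of 0.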

How the data were processed

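Polyadenylated RNA of HT1080 cells was sequenced by a service company. The authors deposited 1 table per experiment, whose signal values are counts scaled by library for each gene symbol. The submitters' processing notes name Partek, Bowtie2, STAR and DESeq2, and the builds hg19 and mm10, with no roles or versions. The scale of each library was estimated from values between 5 and 60, of which 79.3% to 81.9% came within 0.01 of a whole number, so whole reads were not recovered for all genes and tests for counts were not run.

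The limma test (limma 3.58.1, R 4.3.3) was fitted with a variance trend to the 6 libraries of each table, and to all 12 for the difference. It was checked on simulated data. Figures used Python 3.11.15 and matplotlib 3.10.9. Alternatives covered the pseudocount, filter, scaling, variance trend, threshold, joint fit, replicate block and each library left out. The second gene length was chosen after seeing the data.

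The members, lists and tests were chosen with earlier results of these data known. Named were all members, up to 4 called genes with the largest change per list and treatment, partners of members and the 3 genes nearest to CD58 and ALCAM. NECTIN1, NECTIN2, L1CAM, NFKBIB and the values of genes that were not called were added after their values were seen. Promoter windows matched by symbol for 6 of 7 members. A result of the selectin list with ConA is not reported here.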

Additional observations from a re-analysis of the deposited data

Results flagged for a closer look

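For 3 of the 7 members the treatments differed in effect past the thresholds, by the limma test of that difference over 12 libraries, where 10.6% of all genes tested did. The count ran from 2 to 4 with 1 library left out, and each of the 3 calls is lost under at least 1 alternative. In log2 units, PMA less ConA, it came to 1.13 for ALCAM, whose level was higher than in the controls in 3 of 3 libraries with either treatment. It was -1.02 for CD58, which was lower in 3 of 3 libraries with PMA and overlapped its controls with ConA. For VCAM1 the fitted value was -4.58, but it is set by the pseudocount over ConA controls that were all at 0 (-7.84 with 0.1 and -1.74 with 10), and the gene reached the minimum mean in that experiment only through the treated libraries, so it does not measure a difference in effect. Each treatment was given in an experiment of its own, so treatment and experiment cannot be told apart.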

How the results depend on the processing

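The calls of ICAM1 with both treatments and of ALCAM with PMA held under every alternative run. Quantile normalization took the difference of ALCAM to 0.98 and that of CD58 to -0.95, short of the threshold, that of ICAM1 to -1.05, past it, and F11R with ConA to -0.0076. Median centring took the difference of CD58 to -0.97, that of CD99 to 0.018 and F11R with ConA to -0.037. A pseudocount of 10 took the VCAM1 difference to -1.74. Without a variance trend 867 genes were called with PMA (397 lower) and 662 with ConA (506 higher, 156 lower), VCAM1 (log2 fold change 4.82) was no longer called with ConA (nor without ConA library 3), and 1 member was called higher there, as with a mean of at least 50. At an adjusted p of at most 0.05 with no minimum fold, 9586 genes were called with PMA (4970 higher, 4616 lower), 9891 with ConA (4973 and 4918) and 9183 for the difference. Members were then 4 higher and 2 lower with PMA, 4 higher and 1 lower with ConA and 6 for the difference. VCAM1 is in the ConA and difference counts only through ConA controls at 0. The looser rule added F11R (-0.61), CD44 (0.13) and CD99 (0.19) with PMA, and ALCAM (0.54), CD44 (-0.40) and CD99 (0.22) with ConA. It also added the differences of CD44 (0.54), F11R (-0.64) and ICAM1 (-0.997).

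With 1 library left out, log2 fold changes ranged from -1.08 to -0.99 for CD58 with PMA (not called without control 2), -0.054 to 0.0021 for CD58 with ConA, -0.0060 to 0.046 for F11R with ConA, -0.087 to 0.43 for VCAM1 with PMA and 4.79 to 5.19 for VCAM1 with ConA. Differences ranged from -1.05 to -0.97 for CD58 (not called without PMA control 2 or ConA library 2), -0.090 to 0.0093 for CD99 and -1.07 to -0.95 for ICAM1. Between 1 and 2 members were called higher with ConA, and between 0 and 1 lower with PMA. From 2 to 4 passed for the difference. VCAM1 had too low a mean for the test without ConA library 2 or with a mean of at least 50. The causes were not tested.

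With the replicate number as a block in the PMA experiment, 1264 genes were called (597 higher, 667 lower) in place of 1310, and no member's call changed. Deviations of same-numbered libraries correlated at -0.064, 0.096 and 0.096, so the numbers were not taken as pairs. The ConA groups share no numbers. With 3 libraries a group, and at most 43 estimated reads of VCAM1 in a library, differences in that gene of the size of its spread could not be seen.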

Other observations

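The makeup of the ligands within a library shifted towards ICAM1. As a share of the summed normalized counts per kb of the 7 members (median transcript lengths), ICAM1 went from 0.573% ± 0.034 in the PMA controls to 9.31% ± 0.13 with PMA, and from 0.378% ± 0.015 in the ConA controls to 15.1% ± 1.16 with ConA (SD, n = 3). CD44 went from 79.7% ± 0.91 to 70.4% ± 0.096 with PMA and from 74.9% ± 1.77 to 56.1% ± 0.96 with ConA (SD, n = 3). With merged exons as lengths the share of ICAM1 was 1.44% and 19.6% in the PMA experiment and 0.898% and 27.9% in the ConA experiment, and that of CD44 was 62.3% and 46.1% in the former and 55.6% and 32.3% in the latter. ALCAM made up 1.98% ± 0.064 of the sum in the PMA controls and 5.06% ± 0.074 with PMA (SD, n = 3), or 6.27% and 13.5% with merged exons. These shares have no test of their own, since they follow from the changes of the single genes.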
